A study of Rattus norvegicus with 2 samples.

Results

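The genes described here encode the respiratory chain and ATP synthase, the inner-membrane machinery of the mitochondrion. They were chosen by symbol: every gene in both count tables whose name begins with Mt-, Ndufa, Ndufb, Ndufc, Ndufs, Ndufv, Sdh, Uqcr, Cox4, Cox5, Cox6, Cox7, Cox8 or Atp5. This gave 109 members of the 18818 genes that both tables list, 96 encoded in the nucleus and 13 in mitochondrial DNA. Atp5pb and Cox8b matched the same names but were listed for the sham library only, with 1 count each, and are left out. Of the nuclear members, 36 belong to complex I and 8 are complex I assembly factors. Complex II has 4 subunits and 4 assembly factors, complex III 8 members, complex IV 19 and ATP synthase (complex V) 17. Ndufa4 and Ndufa4l2 are counted with complex IV, where the Ndufa4 protein is known to reside. The 13 mitochondrial members are the protein-coding genes of mitochondrial DNA: 7 for complex I, Mt-cyb for complex III, 3 for complex IV and 2 for complex V.

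Complex I takes electrons from NADH and complex II takes them from succinate, and both pass them through ubiquinone to complex III. Cytochrome c carries them on to complex IV, which reduces oxygen, and ATP synthase uses the proton gradient that complexes I, III and IV build. Complexes I, III, IV and V mix subunits from both genomes, whereas complex II is wholly nuclear-encoded. Maturing neutrophils are known to rely mainly on glycolysis, and maturing red cells are known to clear their mitochondria.

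The cells were taken from rats aged 4 weeks, at the zygomatic maxillary suture, where cheek bone meets upper jaw. In the distraction group a distractor bent from 0.4 mm nickel-titanium wire, with a starting force of 20 g, pulled on the suture for 7 days. In the sham group the holes were drilled and no distractor was placed. Each group is 1 library, so no test between the groups is possible, and the sources used here do not say how many rats went into it. All intervals below are 95% intervals that cover counting error only. The values are counts of unique molecular identifiers (UMIs), each standing for 1 captured RNA molecule. Nuclear levels are given as counts per 1000000 non-mitochondrial UMIs (CPM), and mitochondrial levels as a percent of all UMIs. Where a pair of values follows a class, the first is the distraction library and the other the sham library.

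Cells with at least 500 UMIs and 200 genes were used, 4169 distraction cells with 31538019 UMIs and 5275 sham cells with 29791913. Median depth was 4045 and 3022 UMIs per cell, and 22 cell barcodes occurred in both libraries. Cells were placed in classes by marker genes, and 14 classes with at least 50 cells in each library are compared. They cover blood-forming and stromal cells: granulocyte progenitors, 4 neutrophil stages, monocytes, 3 erythroid stages, 3 B-lineage states, class II B cells, and fibroblasts with osteoblasts. The rule that turns markers into classes was set after the data had been seen, 13.1% of cells met no class, and 8.03% lay near the margin of the rule. Mpo, a granule gene of granulocyte progenitors at 10502 and 10570 CPM there, stood at 34.7 and 39.9 CPM in recombining B cells, which gauges the RNA that reaches cells not expected to make it. Cd79b, a B-cell receptor gene at 1246 and 1150 CPM in recombining B cells, stood at 42.0 and 28.4 in mature neutrophils. In late erythroid cells it stood at 25.1 and 113, and both are a larger part of its own level than for Mpo. Igll1, another B-lineage gene at 239 and 250 CPM in recombining B cells, had 0 counts in mature neutrophils and late erythroid cells of both libraries.

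Of the 96 nuclear members, 84 had a promoter in the RefSeq table of build GRCr8, which spans 250 bases before to 50 after the gene start, 4 of them under a newer symbol. NRF1 is a transcription factor known to act on many respiratory chain genes. Its motif GCGCANGCG, searched on both strands, was present in 22 of these 84 windows (26.2%) and in 6.26% of all 27457 promoters in the table. The motif CCGGAAG of GABPA was present in 25 windows (29.8%) against 9.22% of all promoters, and AAGATGGCG of YY1 in 11 (13.1%) against 1.93%. The last 2 share the letters AAG, but their matches overlapped in 0 windows. Together, 48 of the 84 windows held at least 1 of these motifs. TCAAGGTCA of ESRRA was present in 2 (2.38%) against 0.412%, and the erythroid motif AGATAAG of GATA factors in 1 (1.19%) against 2.77%. The lines below give the 4 members with the most counts that carry the NRF1 motif before the gene start. They show the same core in front of genes of complexes IV and V. Each line runs 5′ to 3′ on the gene's strand with up to 35 bases on either side, and capitals mark the motif on one or both strands. A match is a description of letters and no evidence of binding.
Atp5mc2 (chr7:135678230-135678309, minus strand): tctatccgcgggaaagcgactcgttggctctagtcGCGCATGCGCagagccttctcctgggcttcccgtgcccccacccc
Atp5mg (chr8:54130608-54130657, minus strand): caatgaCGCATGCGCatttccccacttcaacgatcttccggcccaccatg
Cox7a2l (chr6:16936526-16936573, plus strand): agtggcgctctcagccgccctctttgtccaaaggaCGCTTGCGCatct
Atp5i (chr14:1464749-1464828, plus strand): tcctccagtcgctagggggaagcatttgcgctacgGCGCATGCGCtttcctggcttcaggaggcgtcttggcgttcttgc
Atp5mc2 encodes the c subunit of the rotor ring, Atp5mg and Atp5i (Atp5me in RefSeq) are small membrane subunits of ATP synthase, and Cox7a2l helps complexes III and IV join into supercomplexes. The motif ends 46, 235, 4 and 66 bases before the gene start, in the order printed. Atp5mg fell from 648 and 654 CPM in granulocyte progenitors to 200 and 123 in mature neutrophils. Atp5i fell from 328 and 290 to 52.5 and 42.6, and Cox7a2l from 400 and 381 to 123 and 89.9. This fall was not particular to members with the motif. Of 82 members tested, 76 were lower in both libraries, among them Cox7b and Cox5a, whose windows held no NRF1 motif.

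Respiratory chain RNA differed several-fold between cell classes, and the order of the nuclear levels was nearly the same in both libraries. The summed nuclear members were highest in early erythroid cells, at 29418 CPM for distraction and 26518 CPM for sham. Proliferating B-lineage cells and granulocyte progenitors followed, with B cells in G2/M at 21887 and 20888 and progenitors at 20580 and 20906. Monocytes (18947 and 17179), recombining B cells (19118 and 16835) and class II B cells (18504 and 16151) came next. Fibroblasts and osteoblasts, the matrix-making cells of the suture, held 11271 and 9794. The lowest levels were in mature neutrophils, at 4499 and 3759, and in late erythroid cells, at 4592 and 6094. The mitochondrial members took their largest shares in B-lineage cells, where recombining cells held 10.7% and 10.2% of all UMIs, and in the sham fibroblast and osteoblast class at 11.4%. Early erythroid cells, first for nuclear members, held 9.01% and 8.11%. Mature neutrophils were again last, with 2.60% and 2.99%.

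**Figure D1:**
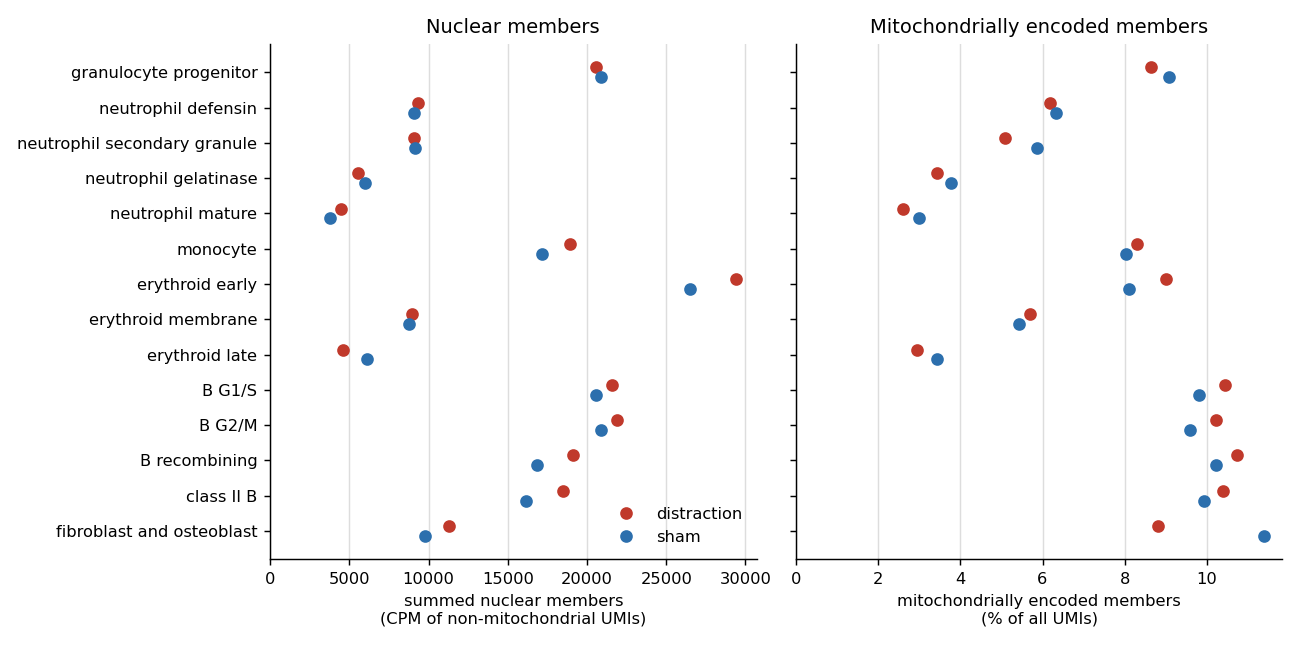
Summed nuclear members in CPM of non-mitochondrial UMIs (left) and mitochondrial members as % of all UMIs (right) in 14 cell classes, 1 point per library. Early erythroid cells lead the left panel at 29418 and 26518, B-lineage classes lie near 10% in the right panel, and mature neutrophils are lowest in both.

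Across the 14 classes the 2 genomes' levels moved together. Pearson's r was 0.857 and Spearman's rho 0.842 over distraction classes, and 0.705 and 0.670 over sham classes. The points of a library share cell loading and sequencing, and the values are descriptive. The ratio of the genomes was farthest apart in the stromal and early erythroid classes. Fibroblasts and osteoblasts had 8.58 and 13.1 mitochondrial UMIs per nuclear member UMI, against 3.37 and 3.33 in early erythroid cells and 5.20 and 5.08 in B cells in G2/M. Mature neutrophils held 5.93 and 8.19. In the sham stromal class, 9 of 57 cells had at least 25% mitochondrial UMIs, against 6 of 80 in the distraction library. Its share was 9.53% without such cells, and 8.27% in the distraction library. Whether damaged cells set this share was not tested.

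Early erythroid cells were the top class for most single members as well. Of 92 nuclear members with at least 30 counts, 58 had their highest level there for distraction, 51 for sham and 49 in both. Over all 12946 nuclear genes with as many counts the shares were 13.7%, 14.6% and 9.6%. B cells in G2/M were the top class for 13 members in each library, and for 9.48% and 7.64% of genes. No member was highest in any neutrophil stage or in late erythroid cells, where 14.8% and 16.3% of genes were.

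Nuclear members fell by several-fold as granulocyte progenitors gave way to neutrophils. The summed level was 20580 and 20906 CPM in progenitors, 9346 and 9077 in defensin-stage cells, and 9116 and 9169 in cells with secondary granule genes. It was 5522 and 5978 in the gelatinase stage and 4499 and 3759 in mature cells. The largest step was thus the first, and the defensin and secondary granule stages did not differ in a consistent direction. Mature cells held 0.219 times the progenitor level in the distraction library (0.208 to 0.229) and 0.180 times for sham (0.167 to 0.193). Median depth also fell along these stages, from 29943 and 16661 UMIs per progenitor to 2286 and 2368 per mature cell. The levels are relative to each class's total, and the part that depth or cell size has in them was not tested. Markers of T and NK cells reached 1828 and 1536 CPM in the progenitor class, with 5 and 4 of 7 measured markers found, and their part in the result was not tested.

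A member is called here when its level differs by at least 1.5-fold with at least 30 counts over both groups. Of 82 nuclear members with enough counts in both libraries, 76 were lower in mature neutrophils than in progenitors in both. The background is high: 59.8% of 6048 nuclear genes tested were also lower in both libraries. The members' median log2 ratio was -2.55 and -2.52, against -1.04 and -1.12 over all genes tested, with a count of 0 set to 3 counts. No member was higher in both libraries, where 15.1% of genes were.

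The fall was uneven between complexes. ATP synthase members together were 6.20- and 7.71-fold lower, with all 16 tested members called in each library. The background for a call in a single library was 64.9% of genes lower and 18.3% higher for distraction, and 66.9% and 17.4% for sham. Complex IV members were 4.23- and 4.84-fold lower, complex III members 4.11- and 4.67-fold, and complex I subunits 4.08- and 5.15-fold. Complex II, the only complex shared with the citric acid cycle, was 3.14- and 4.21-fold lower. Single members spread far wider than the complexes. Cox7b, a small complex IV subunit, fell from 235 and 258 CPM to 10.5 and 9.47. Cox5a, a subunit that joins complex IV early in its assembly, fell from 1131 and 906 to 63.0 and 37.9, which is 17.9- and 23.9-fold. Ndufb5, an accessory subunit of the complex I membrane arm, fell from 216 and 204 to 10.5 and 9.47. Atp5mc2 fell from 1131 and 1242 to 73.5 and 52.1. The mature-cell levels rest on few counts: 4 and 2 for Cox7b, 24 and 8 for Cox5a, 4 and 2 for Ndufb5 and 28 and 11 for Atp5mc2. The part that counting error has in the spread of single members was not tested.

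Cox8a, Ndufa7, Ndufa8, Ndufaf7, Ndufs7 and Sdhaf1 were the 6 tested members that were not lower in both libraries. They are named because of these values. Ndufa8, a complex I subunit of the intermembrane space side, stood at 97.2 and 99.4 CPM in mature neutrophils and at 100 and 106 in progenitors. Cox8a, the ubiquitous form of complex IV subunit 8, stood at 502 and 450 against 730 and 657. Ndufs7, a catalytic iron-sulfur subunit of complex I, was 1.61 and 0.960 times the progenitor level, on only 17 and 6 counts in mature cells. The retained members thus include parts of the catalytic core and parts outside it.

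Most other mitochondrial gene lists fell as well, whereas removal genes moved both ways. All 14 citric acid cycle genes tested were lower in mature neutrophils in both libraries, with median log2 ratios of -2.46 and -2.67. Of the mitochondrial ribosome genes, 67 of 69 tested were lower for distraction and 60 of 63 for sham. Mrps6, a protein of the small mitochondrial ribosome subunit, was higher, at 150 and 180 CPM against 28.5 and 34.1. Of 9 tested mitophagy and removal genes, 4 were higher and 3 lower in each library. Phb2, an inner-membrane receptor of mitophagy, was among the lower ones, at 369 and 455 CPM in progenitors and 23.6 and 37.9 in mature cells. Sqstm1, an autophagy receptor, rose from 293 and 271 CPM to 1825 and 1477, and Ulk1, a kinase that starts autophagy, from 27.2 and 43.0 to 234 and 341. Sod2, the manganese superoxide dismutase of the mitochondrial matrix, rose from 255 and 341 to 7546 and 7115. It was 1 of 2 oxidant defence genes that were higher, with 5 lower in each library and median log2 ratios of -1.93 and -1.37 over the list.

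Summed over all complexes, the mitochondrial members fell less than the nuclear ones, and their make-up shifted toward complex IV. Their share of all UMIs went from 8.64% and 9.09% in progenitors through 6.19% and 6.33%, 5.10% and 5.86%, and 3.44% and 3.78% to 2.60% and 2.99% in mature cells. Mature cells held 0.301 and 0.329 times the progenitor share. Scaled as CPM of non-mitochondrial UMIs, the 7 complex I genes fell 5.09- and 4.54-fold and Mt-cyb 5.83- and 4.71-fold, whereas the 3 complex IV genes fell 2.70- and 2.53-fold. Mt-atp6 and Mt-atp8 together fell 4.48- and 3.68-fold. The nuclear falls were 4.08- and 5.15-fold for complex I, 4.11- and 4.67-fold for III, 4.23- and 4.84-fold for IV and 6.20- and 7.71-fold for V. Only in complexes IV and V was the mitochondrial fall thus smaller in both libraries. Mt-co1, the catalytic subunit of complex IV, rose as a part of mitochondrial UMIs from 20.6% and 19.4% in progenitors to 28.8% and 27.8% in the defensin stage, 31.5% and 29.7% in the secondary granule stage, 35.8% and 34.1% in the gelatinase stage and 37.1% and 32.2% in mature cells. For sham the last of these steps was a fall. Mt-co2 and Mt-co3, the other subunits of its catalytic core, did not rise at every stage either. Mt-co2 went from 10.7% and 9.46% in progenitors to 11.9% and 10.95% in the defensin stage, 12.0% and 10.6% in the secondary granule stage, 11.2% and 9.80% in the gelatinase stage and 9.89% and 8.58% in mature cells. Mt-co3 held 17.3% and 17.1% in progenitors, 18.3% and 18.2% in the defensin stage and 16.7% and 18.3% in mature cells. Mt-cyb went from 10.6% and 12.0% to 6.47% and 8.24%. Mt-nd4, a proton-pumping subunit of complex I, went from 7.53% and 8.43% to 4.97% and 4.92%.

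**Figure D2:**
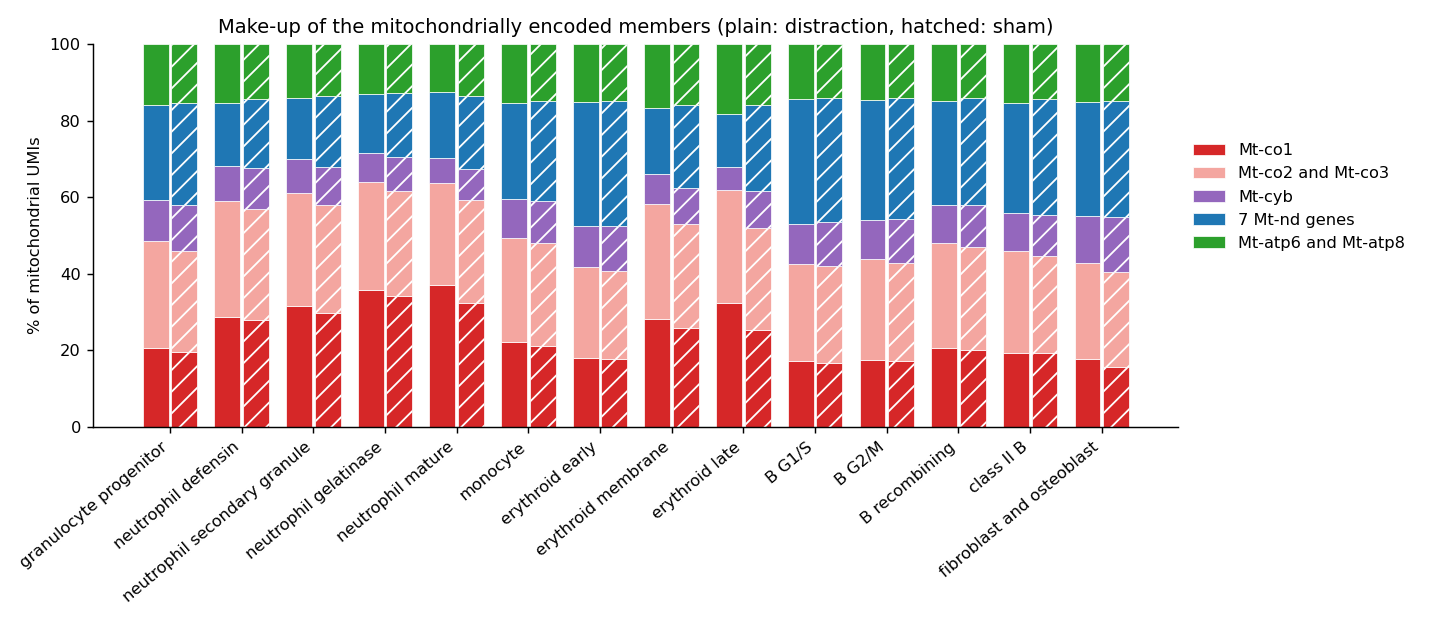
Stacked bars give the part of mitochondrial UMIs that came from Mt-co1, from Mt-co2 with Mt-co3, from Mt-cyb, from the 7 Mt-nd genes and from Mt-atp6 with Mt-atp8, in each class and library. Mt-co1 widens from 20.6% and 19.4% in granulocyte progenitors to 37.1% and 32.2% in mature neutrophils, and the Mt-nd genes narrow.

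In the erythroid series both genomes' RNA fell. Nuclear members went from 29418 and 26518 CPM in early cells to 8987 and 8771 in cells with membrane protein genes and 4592 and 6094 in late cells. Mitochondrial members went from 9.01% and 8.11% of UMIs to 5.69% and 5.43% and then 2.95% and 3.44%. Of 82 members tested in both libraries, 79 were lower in late than in early cells in both, and 84.1% of all 4885 genes tested were lower too. The members' median log2 ratio was -3.10 and -2.46, against -2.33 and -1.98 over all genes. The ratio depends on the total it is scaled to. With haemoglobin, S100a8, S100a9 and immunoglobulin genes left out of the total, the late over early ratio of nuclear members moved from 0.156 and 0.230 to 0.374 and 0.474, and that of the mitochondrial share from 0.328 and 0.424 to 0.755 and 0.844.

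Late erythroid levels rested on few cells. One sham cell of 52 held 23.3% of that class's nuclear member counts, and without it the level was 5095 CPM instead of 6094. In the distraction library the highest of 64 cells held 11.8%, and the level without it was 4276. The median cell stood at 4082 CPM and 4062 CPM, so the typical cells were alike where the sums were not. Sdhaf1 was the 1 member called in opposite directions, at 4.19 CPM in late distraction cells and 144 CPM in late sham cells. The B-cell gene Cd79b moved the same way there, with 6 and 22 counts (25.1 and 113 CPM). Other B-lineage genes did not: Igll1 had 0 counts in late erythroid cells of both libraries, and Vpreb1 had 1 and 0. In the sham library, 1 cell held 53.6% of the Sdhaf1 counts. The part that stray B-cell RNA or this cell has in the result was not tested.

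Atp5if1 stood apart among erythroid members. It encodes the inhibitory factor of ATP synthase, which blocks ATP breakdown by the enzyme, and it is known to be needed for haem synthesis in red cell precursors. Its level was 448 and 354 CPM in early cells, 953 and 899 in the membrane stage and 704 and 624 in late cells. It was the only member higher in late than in early cells in both libraries, by 1.57- and 1.76-fold, where 4.83% of all genes tested were higher in both. Its highest class was 5.77 and 5.05 times its median class. The alpha and beta subunits of the enzyme moved the other way. Atp5f1a, the alpha subunit, went from 592 and 638 CPM in early cells to 48.5 and 93.4 in the membrane stage. Atp5f1b, the catalytic beta subunit, fell less steeply, from 1167 and 1211 CPM to 315 and 293.

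Ndufaf6, a complex I assembly factor, was also an erythroid gene in these cells. It stood at 282 and 134 CPM in early cells and 406 and 170 in the membrane stage, against a median class of 11.2 and 14.3. Ndufa12, an accessory subunit of complex I, peaked in early cells, at 226 and 199 CPM, and fell to 37.7 and 25.8 in late cells. Ndufs1, the largest iron-sulfur subunit of complex I, peaked in the same class at 86.7 and 117. Ndufaf2, an assembly factor that is a paralog of Ndufa12, did so at 17.3 and 18.8. Within mitochondrial UMIs, Mt-co1 rose from 18.1% and 17.7% in early cells to 28.1% and 25.8% in the membrane stage. The 7 Mt-nd genes together went from 32.4% and 32.7% to 17.1% and 21.6%.

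Some genes of mitochondrial removal were higher in late than in early erythroid cells. Most tested removal genes were also higher in recombining B cells than in G2/M, as given below, so the rise was not particular to erythroid cells. Bnip3l (NIX), a receptor known to drive mitochondrial clearance in red cells, stood at 292 and 253 CPM in early cells and 2535 and 2490 in late cells, 8.69- and 9.85-fold higher. Pink1, a kinase that marks damaged mitochondria, was 7.70- and 3.33-fold higher. Of 9 tested mitophagy and removal genes, 4 were higher and 3 lower in each library, the lower ones being Becn1, Fundc1 and Phb2. Of 12 genes for cytochrome c and carriers, 11 were lower in each library and 1 higher: Ucp2, a carrier of the inner membrane, by 2.92- and 3.01-fold. All 67 and 62 mitochondrial ribosome genes tested were lower. The background for single libraries was 88.9% of genes lower and 6.03% higher for distraction, and 85.3% and 6.33% for sham.

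As a share of each class's total, nuclear respiratory chain RNA was modestly lower in recombining B cells than in B cells in G2/M. Whether recombining cells had left the cell cycle was not tested. Nuclear members stood at 21887 and 20888 CPM in G2/M and 19118 and 16835 in recombining cells, which carry Rag1, Rag2 or Dntt, a ratio of 0.873 (0.861 to 0.886) and 0.806 (0.797 to 0.815). The mitochondrial share was slightly higher, at 10.7% and 10.2% against 10.2% and 9.60%. Per cell, nuclear member UMIs went from 214 and 190 in G2/M to 54.4 and 42.0 in recombining cells. Mitochondrial UMIs per cell went from 1114 and 965 to 342 and 284, and median depth from 8872 and 7728 UMIs to 2554 and 2386. The part that depth or cell size has in these values was not tested. Of 85 members tested in both libraries, 9 were lower in both, where 13.9% of genes were, and 2 were higher in both, where 16.2% were. Taken singly, the distraction library had 2 of 85 members higher and 12 lower (21% and 17.6% of genes), and the sham library 2 of 86 higher and 19 lower (25% and 18.5%). The members' median log2 ratio was -0.23 and -0.35, against 0.06 and 0.11 over all genes. Mitophagy and removal genes went up: of 9 and 10 tested, 6 and 7 were higher and 0 lower. Their median log2 ratios were 0.97 and 1.15.

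Cox7a2l and Ndufaf1 were the higher pair. Cox7a2l, the supercomplex factor, went from 562 and 605 CPM in G2/M to 934 and 971 in recombining cells, its highest class in both libraries. Ndufaf1, an early complex I assembly factor, went from 23.2 and 14.0 to 35.8 and 32.9. Ndufa12 had the largest fall, from 122 and 113 to 45.1 and 33.2. Cox7b, Ndufa11, Ndufa2 and Cox5a were among the 9 as well. Scaled as CPM of non-mitochondrial UMIs, the mitochondrial complex IV genes were 1.16 and 1.17 times their G2/M level, and the complex I genes 0.917 and 0.950 times.

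Some members were concentrated in certain classes. Cox5a had its highest level in granulocyte progenitors, at 1131 and 906 CPM, or 4.87 and 4.58 times its median class, followed by monocytes at 489 and 410. Sdhaf1, an assembly factor for the iron-sulfur subunit of complex II, was highest in B-lineage cells, at 403 and 313 CPM in B cells in G1/S and 373 in sham B cells in G2/M, against a median class of 36.4 and 46.8. Sdhaf2, which attaches the flavin of complex II, was highest in B cells in G2/M, at 80.0 and 75.4, with early erythroid cells at 62.1 and 54.5. Ndufaf4 was highest in class II B cells, at 78.0 and 78.2, with progenitors at 50.5 and 67.0. In all, 15 of 92 members had a highest class at least 4 times their median class in both libraries, a rule that 50.8% of all nuclear genes with enough counts met. Of these 15, 7 are assembly factors, and 11 had the same highest class in both libraries; the others were Cox6a2, Cox6b2, Sdhaf1 and Sdhaf4.

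Cox4i2 and Ndufa4l2 were found mainly in stromal and mural cells. Cox4i2, the oxygen-responsive form of subunit 4, had 60 of its 76 distraction counts and 38 of its 52 sham counts in fibroblasts and osteoblasts, at 69.8 and 64.3 CPM. A further 6 and 9 counts lay in only 7 and 8 mural cells, the contractile cells of vessel walls, at 155 and 222 CPM. Cox4i1, the common form, was found throughout, at 792 and 693 CPM over all cells. Ndufa4l2, a hypoxia-linked paralog of Ndufa4, had 15 and 15 counts in the stromal class and 11 and 10 in mural cells, of 33 and 40 in all. Cox6b2, known as a testis form, had 237 and 347 counts spread over B-lineage and stromal cells. Cox7a1, the muscle form of subunit 7a, had 1 and 5 counts, a level at which its distribution was not detectable. Cox6a2, the heart and muscle form of subunit 6a, had 10 and 46 counts. None of the distraction counts lay in stromal cells. Of the sham counts, 39 lay in 5 stromal cells and 16 in 1 of them, a cell of 12031 UMIs with 0 of 7 skeletal muscle markers.

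**Figure D3:**
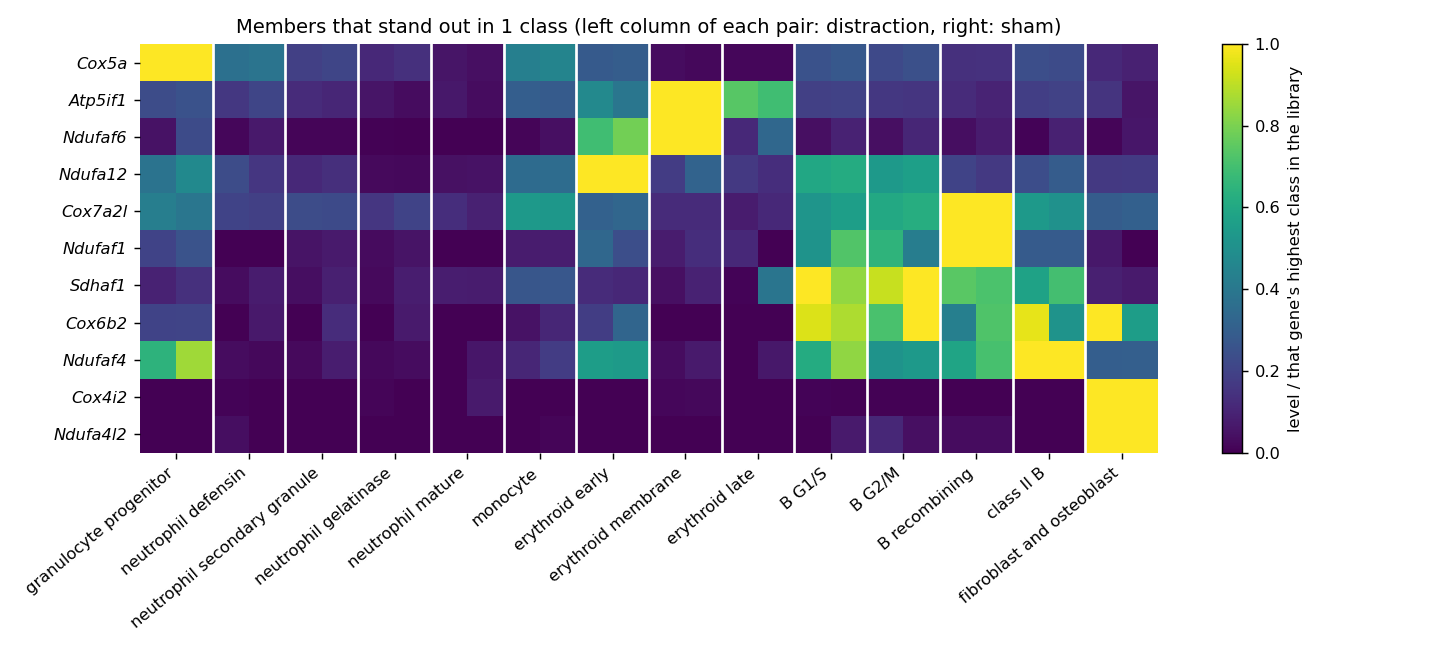
Levels of 11 members in 14 classes, each divided by that gene's highest class in the same library; yellow marks the highest class, and each pair of columns gives the distraction library, then the sham library. Cox5a peaks in granulocyte progenitors, Atp5if1 and Ndufaf6 in the erythroid membrane stage, Cox7a2l and Ndufaf1 in recombining B cells, and Cox4i2 and Ndufa4l2 in the stromal class.

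Between the libraries, the nuclear members summed over all cells were nearly equal: 16671 CPM for distraction and 16649 CPM for sham, a ratio of 1.001 (0.997 to 1.01). The mitochondrial share was 8.18% and 8.80%, a ratio of 0.930 (0.928 to 0.932). The cell mix differed too: neutrophils were 28.7% of distraction cells and 14.7% of sham cells, and B-lineage cells 30.6% and 52.2%. With the distraction classes weighted to the sham make-up, the ratio was 1.08 for nuclear members and 1.02 for the mitochondrial share, so the mitochondrial difference changed direction. It also did so when all deposited cells were counted, at 1.03. The cells left out by the minimum of UMIs and genes were 720 distraction cells, with 75.9% mitochondrial UMIs, and 76 sham cells, with 71.8%.

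Within classes the nuclear ratio was above 1 in 10 of 14. It was 1.14 in recombining B cells, 1.15 in class II B cells, 1.10 in monocytes, 1.11 in early erythroid cells, 1.15 in fibroblasts and osteoblasts and 1.20 in mature neutrophils. It was 0.924 in the gelatinase stage and 0.753 in late erythroid cells. Scaled by the median ratio of all nuclear genes instead, 4 classes changed side: progenitors from 0.984 to 1.10, the secondary granule stage from 0.994 to 1.10, the gelatinase stage to 1.03, and fibroblasts and osteoblasts to 0.956. The mitochondrial ratio was above 1 in 7 of 14 classes, among them the 4 B-lineage classes (1.05 to 1.06), monocytes and early erythroid cells (1.11). It was below 1 in progenitors and in each neutrophil stage, from 0.870 to 0.979, and lowest in fibroblasts and osteoblasts at 0.773. In mature neutrophils it turned to 1.11 once cells with at least 25% mitochondrial UMIs were left out, which removed 0 distraction cells and 1 sham cell, so that this cell set the direction. With 1 library per group, these differences cannot be told apart from differences between the preparations.

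**Figure D4:**
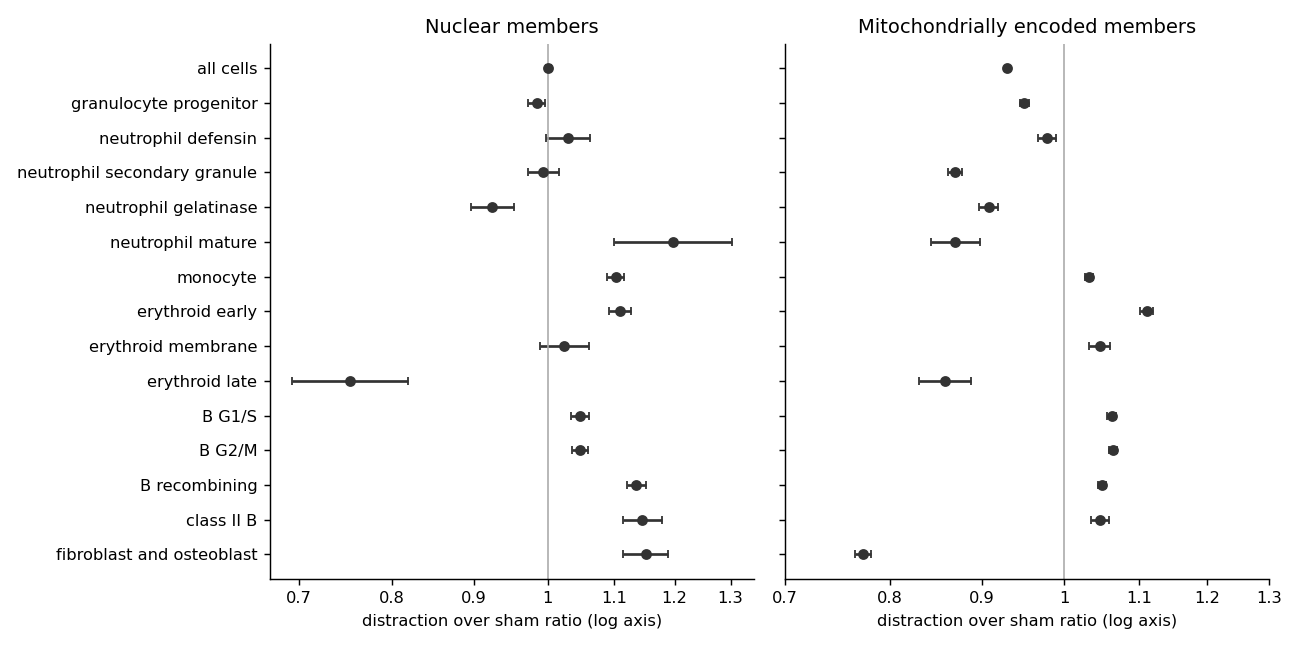
Distraction over sham ratio of the summed nuclear members (left) and of the mitochondrial share (right) for all cells and 14 classes on log axes; bars are 95% counting intervals and do not cover variation between animals. Nuclear ratios run from 0.753 in late erythroid cells to 1.20 in mature neutrophils, and mitochondrial ratios from 0.773 in fibroblasts and osteoblasts to 1.11 in early erythroid cells.

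Few single members passed 1.5-fold over all cells. Of 92 nuclear members tested, 1 was higher in the distraction library, where 8.23% of all 12946 genes were, and 3 were lower, where 14.6% were. Scaled by the median ratio of all nuclear genes instead, 3 were higher and 1 lower. The members' median log2 ratio was -0.03, and that of all genes tested -0.18. Ndufaf6 was the higher one, at 43.4 and 26.7 CPM, a ratio of 1.63 (1.48 to 1.79). Its ratio was 2.10 (1.73 to 2.57) in early erythroid cells and 2.39 (1.93 to 2.98) in the membrane stage, but 0.526 (0.376 to 0.737) in granulocyte progenitors, where it stood at 20.3 and 38.5 CPM. The lower ones were Sdhaf1, at 127 and 194 CPM, with Cox6b2 and Cox6a2. Sdhaf1 was highest in B-lineage cells and Cox6b2 was spread over B-lineage and stromal cells, as described above, and B-lineage cells were fewer in the distraction library; the part this has in the ratios was not tested. Within classes the Sdhaf1 ratio ran from 0.370 in the gelatinase stage to 1.29 in B cells in G1/S and in the stromal class. It was lower by 1.5-fold in 4 of 12 classes tested, 3 neutrophil stages and the erythroid membrane stage, and higher in none. In B cells in G2/M it stood at 369 and 373 CPM.

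Within classes, calls between the libraries were few in progenitors and in cycling and recombining B cells, and more frequent in the later neutrophil stages. Of 86 members tested in granulocyte progenitors, 0 were higher in the distraction library and 2 lower, beside 4.41% and 12.1% of all genes tested there. The defensin stage had 3 of 75 higher and 8 lower (9.73% and 12.1% of genes), and the secondary granule stage 1 of 78 higher and 5 lower (4.62% and 14.5%). The gelatinase stage had 1 of 69 higher and 13 lower (4.42% and 17.6%). These shares lie near or below those of the genes around them. In mature neutrophils 4 of 26 members were higher and 1 lower (14.4% and 10% of genes), and in late erythroid cells 1 of 19 was higher and 6 were lower (8.88% and 32.9%), again near the background. Monocytes had 2 of 83 higher and 1 lower (4.64% and 5.69%). Early erythroid cells had 4 of 84 higher and 0 lower (4.48% and 7.54%), and their median log2 ratio was 0.18 for the members and -0.06 for all genes. B cells in G1/S had 1 of 85 higher and 0 lower (3.59% and 5.01%), and B cells in G2/M 1 of 86 higher and 0 lower (3.84% and 4.29%). Class II B cells had 8 of 79 higher and 1 lower (7.29% and 10.6%), with a median log2 ratio of 0.21 for the members and -0.02 for all genes.

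Scaled to non-mitochondrial UMIs, Cox5a and Atp5mf were higher in the distraction library in every class tested. Of 1361 nuclear genes tested in at least 13 classes, 0.22% were higher in every one, which is 3 genes, and 2 of them were these members, of 30 members so tested. None of the 30 was lower in every class, where 1.25% of genes were. Over all cells Cox5a stood at 405 and 271 CPM, a ratio of 1.49 (1.45 to 1.54). Its class ratios ran from 1.05 in the gelatinase stage to 1.78 in the erythroid membrane stage, with a median of 1.21, and it passed 1.5-fold in 3 of 13 classes. Granulocyte progenitors, its highest class, held 4408 of its 11716 distraction counts and 1622 of its 7374 sham counts. They also made up more of the distraction library, with 4267531 UMIs against 1969653. Within them the ratio was 1.25 (1.18 to 1.32). The part of the cell mix in the ratio over all cells was not tested. Atp5mf, a small membrane subunit of ATP synthase, had class ratios from 1.05 to 1.44 and passed 1.5-fold in none of 14. In fibroblasts and osteoblasts it stood at 275 and 242 CPM. Scaling by the median ratio of all nuclear genes lowers log2 ratios there by 0.27, which takes Atp5mf below 1 in that class. The classes of a library were prepared together, and they are not independent observations.

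The ratios of some ATP synthase members between the libraries went in different directions in different classes. In the erythroid membrane stage Atp5mc2 stood at 59.3 and 166 CPM, a ratio of 0.358. Atp5mc3, another gene for the same c subunit, stood at 105 and 200, and Atp5f1e, the epsilon subunit, at 52.6 and 94.8. In this class 10 of 62 tested members were lower in the distraction library and 5 higher, with 17.1% and 5.44% of genes as background. The lower calls thus lay near the background. Atp5mc2 rested on 44 and 117 counts, with 18.8% of the sham counts in 1 cell. Atp5f1e rested on 39 and 67 counts, with 20.5% of the distraction counts in 1 cell. In fibroblasts and osteoblasts several ATP synthase members were higher, as were Cox5a, Cox6b2, Ndufb7, Ndufb10 and Uqcrc1. Atp5if1 stood at 142 and 52.4 CPM, Atp5mc1 at 143 and 60.9, Atp5pf at 142 and 84.6 and Atp5f1b, the catalytic beta subunit, at 334 and 200. Others did not pass 1.5-fold, such as Atp5mc2 at 602 and 607 CPM and Atp5f1e at 510 and 589. There 10 of 77 tested members were higher and 4 lower, but 29.6% of all genes tested were higher and 11.7% lower, and the median log2 ratio was 0.18 for the members and 0.27 for all genes. The stromal members therefore did not stand above the genes around them. In recombining B cells, 1 of 85 tested members was higher and 1 lower, against 4.06% and 6.1% of genes, although the median log2 ratio was 0.18 for the members and -0.03 for all genes.

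The make-up of mitochondrial RNA differed between the libraries in 1 direction across classes. Mt-co2 held 10.5% and 9.26% of mitochondrial UMIs, and its part was higher in all 14 classes, by 1.06 to 1.17 times. Mt-co1 was also higher in all 14, at 21.5% and 19.9% over all cells, with ratios from 1.0004 to 1.28. Mt-cyb held 10.1% and 11.2% and was lower in all 14, with ratios from 0.624 to 0.944. Mt-nd4 was lower in 13 of 14, and Mt-atp6 higher in 13 of 14. These parts sum to 100% within a class, and whether the offset belongs to the tissue or to the preparation of each library cannot be told apart.

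Other mitochondrial genes gave few calls between the libraries. Of 14 citric acid cycle genes tested over all cells none passed 1.5-fold, and of 72 mitochondrial ribosome genes 4 were lower and 0 higher. Of 22 genes for the upkeep and expression of mitochondrial DNA, 4 were lower, near the 14.6% of all genes, among them Polrmt, the mitochondrial RNA polymerase, at 10.5 and 17.0 CPM. Median log2 ratios of these lists were -0.19, -0.24 and -0.35, beside -0.18 for all genes tested. Assembly factors outside the symbol rule had the lowest medians. It was -0.38 for 16 complex IV genes, 2 of them lower, and -0.39 for 14 genes of complexes I, III and V, 1 of them lower. The remaining lists ran from -0.22 for mitophagy and removal to 0.03 for oxidant defence.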

How the data were processed

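Single-cell RNA was measured with BD Rhapsody in 1 distraction and 1 sham library of rat suture. The values used are UMI counts per gene and cell, as the authors deposited them; BD's pipeline for Rhapsody whole-transcriptome data, version 1.5.1, stands in the file headers. Build Rnor_6.0 and Seurat 3.6 appear in the submitters' processing notes. The sources used here do not state the strand setting, nor how reads shared by near-identical copies (Cox6c and Cox6c-ps1, Cox7a2l and Cox7a2l2) were assigned. The members, lists and tests were chosen with earlier results of these data known.

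Cells needed 500 UMIs and 200 genes. Each marker list was scaled to its 20 highest cells, and a lineage needed 3 markers and 1.25 times the next lineage; a stage needed 2 markers (1 for recombining B cells) and 1.1 times the next stage. Cells led by class II genes with at least 2 B-cell markers are called class II B. No doublet caller was run, so doublets must be assumed to remain, also among the deep progenitors. Counts were summed per class and library. Nuclear members were scaled to 1000000 non-mitochondrial UMIs (CPM), and mitochondrial members were taken as a percent of all UMIs. Ratios carry exact conditional binomial intervals. A gene was called at 1.5-fold with 30 counts over both groups, and the same call over all nuclear genes is the background. Levels of different genes were not compared with each other.

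Named were all mitochondrial members, the 3 nuclear members per complex with the most counts, the 5 highest and 5 lowest ratios between libraries per class (at least 50 CPM), members with a class at 4 times their median class, and fixed isoform sets. Other genes named were chosen after their values were seen. Values of 1 member are not reported here by name. Python 3 with numpy, scipy and pandas was used, and the ratio and call were tested on simulated data. The alternatives are given in the closing section.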

Additional observations from a re-analysis of the deposited data

Results flagged for a closer look

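Atp5f1a, the alpha subunit of ATP synthase, differed between the libraries in opposite directions in 2 classes. Its distraction over sham ratio was 1.52 in fibroblasts and osteoblasts and 0.52 in the erythroid membrane stage. Atp5mc1, a gene for the c subunit, did likewise, with 2.35 in fibroblasts and osteoblasts and 0.621 in defensin-stage neutrophils. Each of these 4 ratios has a counting interval on 1 side of 1, and the difference between the classes was not tested. In fibroblasts and osteoblasts 29.6% of all genes tested were higher by 1.5-fold. In the erythroid membrane stage 17.1% were lower, and in the defensin stage 12.1%. Atp5mc1 had 36 sham counts in fibroblasts and osteoblasts, 22.2% of them in 1 cell.

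The 720 distraction cells left out by the minimum of UMIs and genes carried signal outside the comparisons: 75.9% of their UMIs were mitochondrial, against 8.18% in the distraction cells used. Their median depth was 497.5 UMIs. The 76 sham cells left out held 71.8%.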

How the results depend on the processing

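No paired analysis was possible because each group is 1 library. Leaving out a library was likewise not possible. The mitochondrial share ratio between libraries (0.930) was 0.926 in cells under 25% mitochondrial UMIs, 0.927 at a minimum of 1500 UMIs and 0.882 as a ratio of medians over cells. With 2 alternatives chosen after seeing the data it was 1.03 (all deposited cells) and 1.02 (weighted to the sham class make-up), and so changed side. Another added alternative, 1 more marker per class, was applied to the class ratios. The nuclear ratio (1.001) was 1.01 scaled to all UMIs, 1.14 scaled by the median of ratios and 1.08 with those weights. With haemoglobin, S100a8, S100a9 and immunoglobulin genes left out of the total, the mature neutrophil over progenitor ratio of the mitochondrial share was 0.314 and 0.340 (distraction, sham), the late over early erythroid ratio 0.374 and 0.474 for nuclear members and 0.755 and 0.844 for the mitochondrial share. With 1 more marker needed, the mitochondrial neutrophil ratio was 0.294 (distraction), the erythroid one 0.266 and 0.387, and the nuclear erythroid one 0.200 (sham). In cells under 25% mitochondrial UMIs the mitochondrial ratios were 0.272 for neutrophils (sham), 0.350 and 0.447 for erythroid cells and 1.06 and 1.08 for B cells. The causes were not tested, beyond what each alternative leaves out. All 36 alternative values of the stage contrasts and all 30 of the 10 genes named over all cells stayed on their side of 1, as did 52 of 56 nuclear and 41 of 42 mitochondrial class ratios. The count of members past 1.5-fold between libraries was 4, and 4 to 6 under its alternatives. With 1 library per group, depth limits the small classes most: 26 members in mature neutrophils and 19 in late erythroid cells had enough counts for a call between libraries.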

Other observations

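Small classes outside the comparisons gave further values. C1q macrophages, resident tissue phagocytes with 30 and 21 cells, held nuclear members at 10799 and 10745 CPM, below monocytes at 18947 and 17179. Their mitochondrial share was 8.73% and 8.32%. Immature and mature B cells, with 46 and 137 cells, held 16362 and 14498 CPM and the mitochondrial share there was 12.4% and 10.7%. B-lineage cells that met no stage lay in the range of the staged ones, at 19921 and 17958 CPM.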
